A study of Caenorhabditis elegans with 3 samples.

Results

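Aminoacyl-tRNA synthetase genes were taken as the features whose symbol in the platform annotation consisted of a single letter for the amino acid, the letters ars and a number. This rule found 30 of 20000 features, which stood for 29 of the 19292 genes and unnamed features tested, and all 29 were measured on all 3 arrays. They covered 19 amino acids: 18 genes were numbered 1, 10 were numbered 2 and 1, *fars-3*, was numbered 3. The study set RNA of *Caenorhabditis elegans* late L4 hermaphrodites, animals near the end of the last larval stage, against a wild-type mixed reference RNA on two-colour arrays. The late L4 animals formed 1 group of 3 preps, with 1 array each; the labels name no mutation, treatment or age in hours for them, and for the reference only that it was wild type and mixed. The same reference stood on every array and had no replicate, and 0 arrays were dye-swapped in the labels, so a gene-specific dye effect and a true difference in RNA cannot be told apart. Whether the preps were grown as separate cultures is not in the labels. A p-value here therefore sets a mean ratio only against the spread between these preps, taken partly from all genes, and that spread may be technical.

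Aminoacyl-tRNA synthetases join each amino acid to its own tRNAs, the step at which the genetic code is read into protein chemistry. Cells translate in the cytosol and in mitochondria, and many animals encode a separate synthetase for each compartment, while some amino acids have a single gene whose alternative starts supply both. By convention the gene of the cytosolic enzyme carries the number 1 and that of the mitochondrial enzyme the number 2. The convention has exceptions in the worm: the alanyl pair is known to be numbered the other way round, with *aars-2* encoding the cytosolic enzyme. In *fars-3* the number marks a subunit, since the cytosolic phenylalanyl enzyme is built from an alpha subunit encoded by *fars-1* and a beta subunit encoded by *fars-3*.

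Values are the log2 ratios deposited for each array, averaged over the features of a gene, and a positive value stands for a higher level in late L4 than in the reference. This direction is likely, because the sample descriptions name late L4 before the reference, and it is not stated with the values. If the ratios ran the other way, every sign and every higher or lower below would be turned, and the 9 genes called higher and the 1 called lower would change places. The ratios carry no intensities, so signal over background and the order of transcript levels between genes are unknown. On preps 1, 2 and 3 the median over everything tested was 0.01, -0.10 and -0.06. As a check of the stage, 29 of 30 major sperm protein genes, which are transcribed as hermaphrodites make sperm in L4, were higher, and *try-5*, a protease gene of male seminal fluid, was not (mean log2 ratio -0.41 ± 0.28, SD, n = 3). Signal shared between the members of the sperm protein family was not tested, so the 29 may not be separate checks. The yolk protein genes of adult hermaphrodites gave no clear check: *vit-5* (-0.13 ± 0.35) and *vit-6* (0.20 ± 0.39) did not pass, and *vit-2* (-1.41 ± 1.63) passed as lower only with prep 3 (adjusted p = 0.34 without it). In whole animals, fewer cells of a type and less RNA per cell cannot be told apart.

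Several synthetase transcripts were more abundant in late L4 than in the reference, led by the glycyl, phenylalanyl and threonyl genes. Of the 29 genes, 9 were higher, 1 was lower and 19 did not pass (limma, adjusted p under 0.05), against 12.0% higher and 10.8% lower among everything tested. The mean log2 ratio was above 0 for 28 of the 29, with a median of 0.45; it was above 0 for 47.7% of everything tested, whose median was -0.03. On preps 1, 2 and 3 the synthetase genes had medians of 0.45, 0.47 and 0.36, so each prep gave a similar shift. At an adjusted p under 0.01, 3 genes were higher and 0 lower, against 8.46% and 6.31% of everything tested. The same 3, *gars-1*, *fars-3* and *tars-1*, were the only ones to pass the test at 2-fold or more. The count of higher genes was 6 of 29 without prep 1, 6 without prep 2 and 4 without prep 3, against 10.2%, 10.7% and 9.35% of everything tested, so that the count without prep 3 was near the background. *gars-1*, *fars-3* and *tars-1* passed whichever prep was left out.

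**Figure D1:**
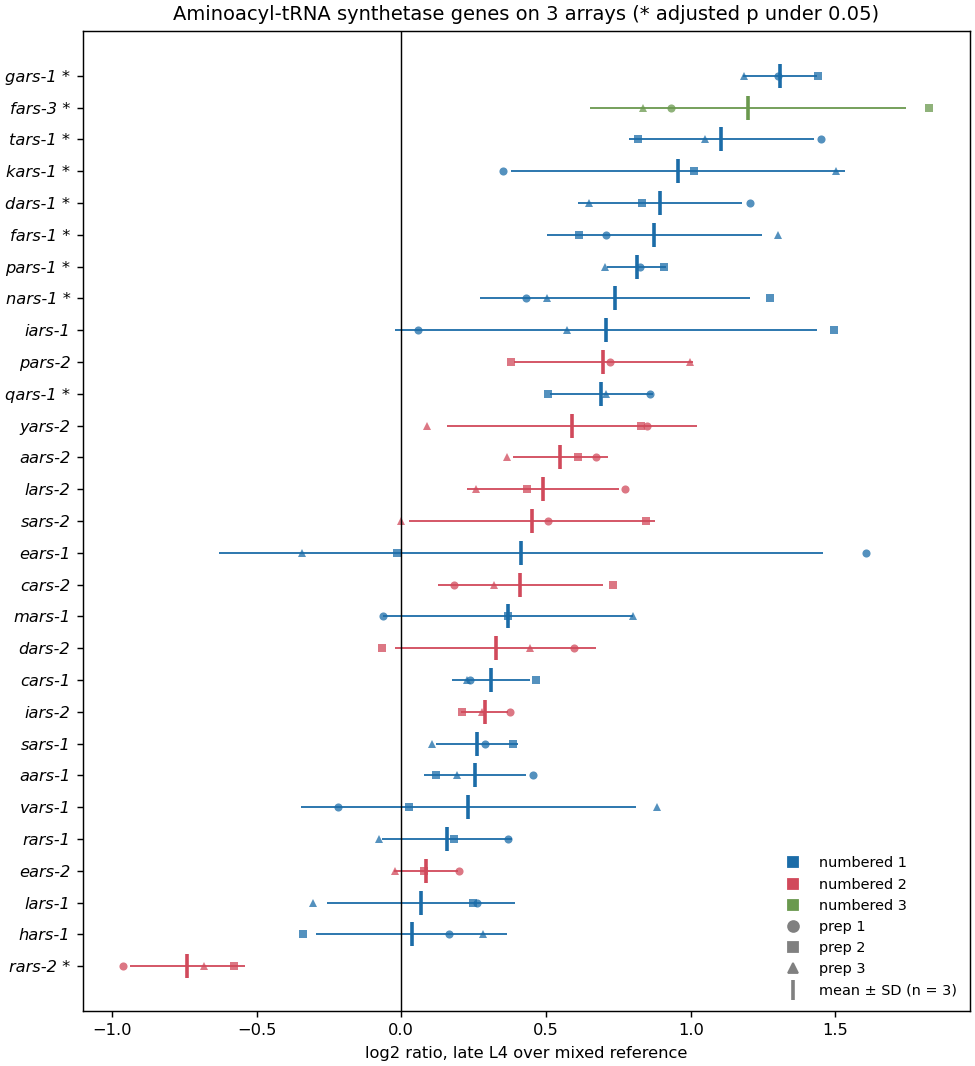
Log2 ratio of late L4 over the mixed reference for each of the 29 synthetase genes, ordered by mean, with 1 symbol for each prep and a bar for the mean ± SD (n = 3); colours give the number in the gene symbol and stars mark genes that passed the test. All but *rars-2* have a mean above 0, and *gars-1* has the highest mean at 1.31.

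*gars-1* (T10F2.1), the glycyl-tRNA synthetase gene, read 1.30, 1.44 and 1.18 (log2 ratios) on preps 1, 2 and 3. These were the closest set of values among the 3 genes above 2-fold, and the mean was 2.48-fold (log2 ratio 1.31 ± 0.13, SD, n = 3; adjusted p = 0.000765). In humans the glycyl enzyme comes from a single gene for both compartments, and no *gars-2* is listed in the RefSeq gene table used here. *tars-1* (C47D12.6), for threonyl-tRNA synthetase, had 1.45, 0.82 and 1.05, or 2.15-fold (1.11 ± 0.32; adjusted p = 0.00364). It was highest on prep 1 and well above 0 on every prep.

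Both subunit genes of the cytosolic phenylalanyl enzyme were higher. *fars-3* (F22B5.9), the beta subunit gene, had 0.93, 1.82 and 0.84 on preps 1, 2 and 3, with a mean of 2.29-fold (log2 ratio 1.20 ± 0.54, SD, n = 3; adjusted p = 0.00332). *fars-1* (T08B2.9), the alpha subunit gene, had 0.71, 0.62 and 1.30, or 1.83-fold (0.87 ± 0.37; adjusted p = 0.018). The prep with the highest value was prep 2 for the beta and prep 3 for the alpha subunit. *fars-1* no longer passed without prep 3 (mean 0.66, adjusted p = 0.17).

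The other higher genes lay below 2-fold. *kars-1* (T02G5.9), for lysyl-tRNA synthetase, had 0.35, 1.01 and 1.50 on preps 1, 2 and 3, a wide spread (1.94-fold, log2 ratio 0.95 ± 0.58, SD, n = 3; adjusted p = 0.016), and it did not pass without prep 3 (mean 0.68, adjusted p = 0.17). *dars-1* (B0464.1), for aspartyl-tRNA synthetase, had 1.20, 0.83 and 0.65 (1.86-fold, 0.89 ± 0.28; adjusted p = 0.014), and it did not pass without prep 1 (mean 0.74, adjusted p = 0.11). Both genes were above 0 on every prep, but in *kars-1* prep 1 was the lowest and in *dars-1* it was the highest. *pars-1* (T20H4.3), for prolyl-tRNA synthetase, had 0.83, 0.91 and 0.70 (1.76-fold, 0.81 ± 0.10; adjusted p = 0.021). Its preps lay close together, yet leaving out any 1 of them raised the adjusted p to between 0.067 and 0.10.

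*nars-1* and *qars-1* stood at the threshold. *nars-1* (F22D6.3), for asparaginyl-tRNA synthetase, had 0.43, 1.27 and 0.50 (1.67-fold, log2 ratio 0.74 ± 0.47, SD, n = 3; adjusted p = 0.0496), with prep 2 far above the others. Its adjusted p ranged from 0.053 to 0.41 when any 1 prep was left out, with a mean of 0.47 without prep 2, and was 0.053 under median centring of the arrays. *qars-1* (Y41E3.4), for glutaminyl-tRNA synthetase, had 0.86, 0.51 and 0.71 (1.62-fold, 0.69 ± 0.18; adjusted p = 0.0484), and 0.093 to 0.21 was the range of its adjusted p without any 1 prep. When rows with values on only 2 arrays were also tested, neither passed (adjusted p = 0.053 for *nars-1* and 0.051 for *qars-1*), and *nars-1* also missed the threshold with features not averaged (adjusted p = 0.0504). The isoleucyl gene *iars-1* (R11A8.6) had a mean between those of *qars-1* and *nars-1*, 0.71 ± 0.73. It did not pass (adjusted p = 0.087), since its ratios were 0.06, 1.49 and 0.57. It passed without prep 1 (mean 1.03, adjusted p = 0.023).

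The remaining 9 genes numbered 1 did not pass. All had means above 0, from 0.04 for the histidyl gene *hars-1* to 0.41 for the glutamyl gene *ears-1*. *ears-1* varied most of all 29 genes, with 1.60, -0.02 and -0.34 on preps 1, 2 and 3, and its mean was -0.18 without prep 1. The methionyl gene *mars-1* (-0.06, 0.37 and 0.80; mean 0.37) and the valyl gene *vars-1* (-0.22, 0.03 and 0.88; mean 0.23) were highest on prep 3, and the mean of *vars-1* was -0.10 without it. The cysteinyl gene *cars-1* (mean 0.31 ± 0.13), the seryl gene *sars-1* (0.26 ± 0.14) and the mitochondrial alanyl gene *aars-1* (0.26 ± 0.18) were above 0 on every prep by small amounts (SD, n = 3). The arginyl gene *rars-1* (0.16 ± 0.22), the leucyl gene *lars-1* (0.07 ± 0.32) and *hars-1* (0.04 ± 0.33) had means below their SDs; those of *lars-1* and *hars-1* turned to between -0.087 and -0.022 when some of the preps were left out.

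A second valyl-tRNA synthetase gene on the array, *glp-4* (Y87G2A.5), has a name that the rule did not find and was named after its values were seen. It is known for a temperature-sensitive mutant that lacks a germ line. Its ratios were 0.74, 0.54 and 0.67 on preps 1, 2 and 3, a mean of 0.65 ± 0.10 (SD, n = 3) that missed the threshold (adjusted p = 0.062) and passed under median centring (adjusted p = 0.047). These values were closer together than those of *vars-1*. The compartment of neither valyl enzyme was checked here, so *vars-1* was grouped by its number only.

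Among the 10 genes numbered 2, limma called 0 higher and 1 lower, while 3 had an unadjusted p under 0.05 with a positive mean, against 16.5% of everything tested. The lower gene was *rars-2* (C29H12.1), the arginyl gene numbered as mitochondrial, with -0.96, -0.58 and -0.68 on preps 1, 2 and 3. It was the only synthetase gene below 0 on all 3 arrays, with a mean log2 ratio of -0.74 ± 0.20 (SD, n = 3), or 1.67-fold lower, at an adjusted p of 0.036. With any prep left out the adjusted p lay between 0.074 and 0.19, and median centring gave -0.69 at an adjusted p of 0.056. The direction was the same in each of these cases.

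The other 9 genes numbered 2 had means from 0.09 to 0.70. The prolyl gene *pars-2* (T27F6.5) was the highest at 0.72, 0.38 and 1.00 (mean 0.70 ± 0.31, SD, n = 3; adjusted p = 0.052), and it passed after median centring (adjusted p = 0.044) or when eBayes was run in its robust form (adjusted p = 0.048). It was also the only member with 2 features, whose means were 0.70 each. The tyrosyl gene *yars-2* (0.85, 0.83 and 0.09; mean 0.59) and the seryl gene *sars-2* (0.51, 0.85 and 0.00; mean 0.45) shared low values on prep 3. *aars-2*, the cytosolic alanyl gene despite its number, had 0.67, 0.61 and 0.36, with a mean of 0.55 ± 0.16. The leucyl gene *lars-2* (mean 0.49 ± 0.26) and the isoleucyl gene *iars-2* (0.29 ± 0.08) were also above 0 on every prep. The aspartyl gene *dars-2* (0.33 ± 0.35) and the glutamyl gene *ears-2* (0.09 ± 0.11) were each below 0 on 1 prep.

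*cars-2* (Y23H5A.1) is listed as a pseudogene in the RefSeq gene table and is the direct neighbour of *cars-1* (Y23H5A.7) on chromosome I. *cars-1* had ratios of 0.24, 0.47 and 0.23 on preps 1, 2 and 3, and *cars-2* had 0.18, 0.73 and 0.32 (mean 0.41 ± 0.29, SD, n = 3). The difference, *cars-1* minus *cars-2*, averaged -0.10 ± 0.16. The difference was smaller than its spread, and because the probe type is not given, signal shared between neighbours of related sequence was not tested. Of the 29 genes, 9 lay on chromosome I, 5 on II, 5 on III, 8 on IV, 2 on V and 0 on X.

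Most genes called higher were numbered 1, but the median ratios of the groups did not differ beyond the spread between preps. Of 18 genes numbered 1, 8 were higher and 0 lower, and of 10 genes numbered 2, 0 were higher and 1 lower. Among everything tested, 12.0% were higher and 10.8% lower, so the 1 lower of 10 was near that share. The difference between the counts of the 2 groups was not tested. The count of 8 was 5 without prep 1, 5 without prep 2 and 3 without prep 3, against 10.2%, 10.7% and 9.35% of everything tested. The median of the means was 0.55 for the genes numbered 1 and 0.43 for those numbered 2. Array by array, the median of the genes numbered 1 was 0.40, 0.49 and 0.61 on preps 1, 2 and 3, against 0.55, 0.41 and 0.27 for the genes numbered 2. The difference, numbered 1 minus numbered 2, was therefore -0.15, 0.08 and 0.34 on the same preps, with a mean of 0.09 ± 0.25 (SD, n = 3). It changed sign between preps, and with 3 arrays an exact two-sided sign-flip test cannot give a p below 0.25. Without prep 3 the mean difference was -0.04. With the alanyl genes exchanged, a setting chosen after seeing the data, it was 0.19 ± 0.24, still within the spread.

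Within amino acids, 9 pairs had both a gene numbered 1 and a gene numbered 2 on the array. The mean difference, numbered 1 minus numbered 2, was above 0 in 5 pairs and below 0 in 4, and the median of the 9 differences averaged -0.04 ± 0.09 over the arrays. In 5 of the 9 pairs the sign differed between preps. The pairs that kept one sign went both ways, as follows. For arginine, *rars-1* exceeded *rars-2* by 1.33, 0.76 and 0.60 on preps 1, 2 and 3 (0.90 ± 0.38, SD, n = 3), and for aspartate *dars-1* exceeded *dars-2* by 0.61, 0.90 and 0.20 (0.57 ± 0.35). For leucine, *lars-1* minus *lars-2* was -0.51, -0.19 and -0.57 (-0.42 ± 0.21), and for alanine *aars-1* minus *aars-2* was -0.22, -0.49 and -0.17 (-0.29 ± 0.17). The alanyl difference favours the gene that encodes the cytosolic enzyme, the leucyl difference the gene numbered as mitochondrial. The glutamyl pair (0.33 ± 0.94) and the isoleucyl pair (0.42 ± 0.81) had the widest spread, set by prep 1 for *ears-1* and by prep 2 for *iars-1*. The prolyl (0.11 ± 0.41) and seryl (-0.19 ± 0.28) differences were also smaller than their SDs.

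**Figure D2:**
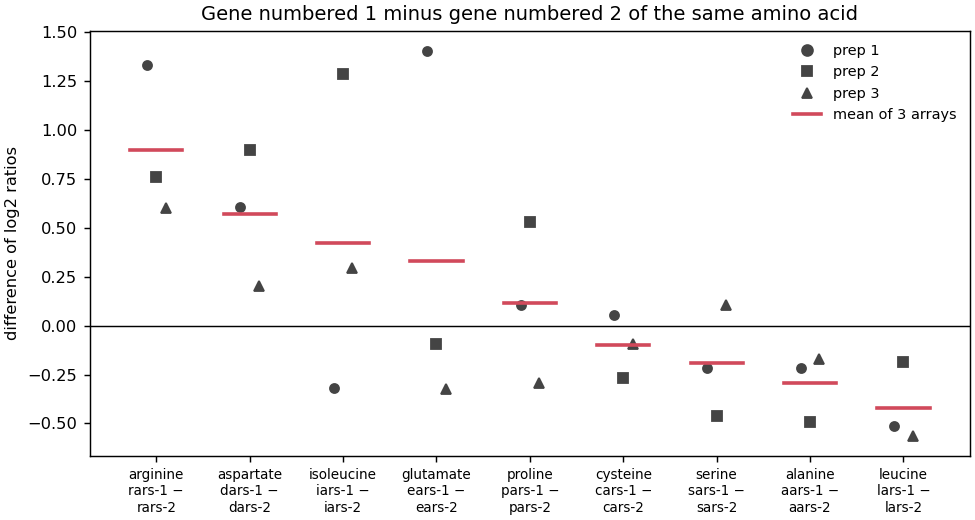
Difference of log2 ratios, gene numbered 1 minus gene numbered 2, for the 9 amino acids with both genes measured, with 1 symbol for each prep and a red line for the mean of the 3 arrays. The arginyl and aspartyl pairs lie above 0 on every prep and the leucyl and alanyl pairs below 0.

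Synthetases fall into 2 structurally unrelated enzyme classes, class I and class II, which differ in the fold of the catalytic domain. This grouping was chosen after the values were seen and is given as a description. Of the genes numbered 1, 7 of 10 class II genes were higher (glycyl, threonyl, lysyl, aspartyl, phenylalanyl alpha, prolyl and asparaginyl), against 1 of 8 class I genes (glutaminyl). The class I share, 12.5%, was near the 12.0% higher among everything tested. Of the genes called here, only *gars-1* and *tars-1* passed whichever prep was left out. Without prep 1 the class I gene *iars-1* passed (adjusted p = 0.023) and *qars-1* did not (adjusted p = 0.21). The median of the means was 0.84 for class II and 0.34 for class I. The difference of the medians, class II minus class I, was 0.33, 0.52 and 0.28 on preps 1, 2 and 3 (0.37 ± 0.13, SD, n = 3), and so had 1 sign on all arrays. *fars-3*, numbered 3, also belongs to a class II enzyme. Exceptions were the class II genes *hars-1*, *aars-1* and *sars-1*, with means of 0.04, 0.26 and 0.26. Among the genes numbered 2 the medians were 0.50 for 4 class II genes and 0.35 for 6 class I genes.

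**Figure D3:**
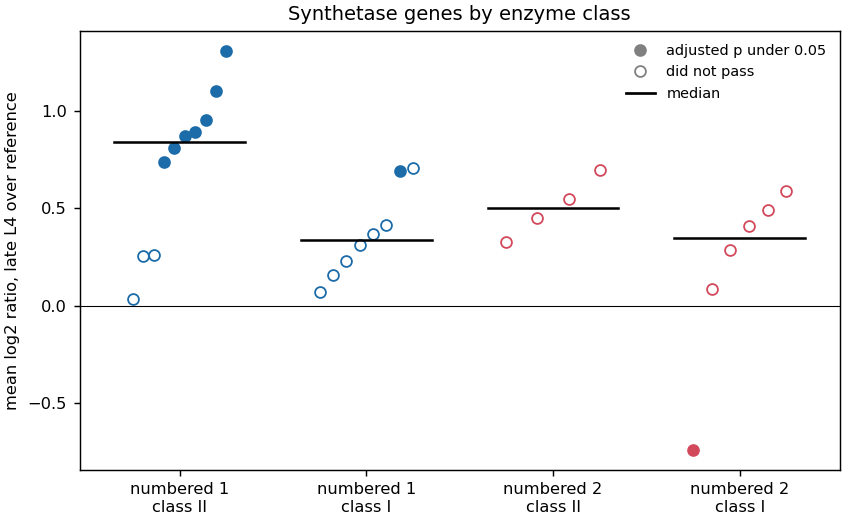
Mean log2 ratio over the 3 arrays of each synthetase gene, grouped by the number in its symbol and by enzyme class; filled circles passed the test, open circles did not, and black lines are medians. Of the genes numbered 1, class II has a median of 0.84 and class I one of 0.34.

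Another division was also made with the values in view. In humans, several cytosolic synthetases are held in a multi-synthetase complex, and the genes numbered 1 for the same amino acids (aspartate, glutamate, isoleucine, leucine, lysine, methionine, proline, glutamine and arginine) numbered 9. Of these, 4 were higher, as were 4 of the other 9 genes numbered 1, with medians of 0.69 and 0.31. That was 44.4% in each, and 12.0% of everything tested were higher. Of 6 genes numbered 1 for which RefSeq lists no gene numbered 2 under that name, 4 were higher (*gars-1*, *tars-1*, *kars-1* and *qars-1*) and the median was 0.82. The others were *hars-1* and *vars-1*, and *vars-1* fell here only because the second valyl gene is named *glp-4*. Of the 12 with such a counterpart, 4 were higher and the median was 0.39. The genes *fars-2*, *mars-2*, *nars-2*, *wars-1* and *yars-1* of RefSeq were not analysed here.

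The synthetase genes were set beside 7 lists of other genes of protein synthesis, named from the updated symbols. Of 63 cytosolic ribosomal protein genes, 14 were higher and 0 lower, with a median of 0.49. Of 25 genes of translation initiation factors, 9 were higher and 0 lower, with a median of 0.47, led by *inf-1*, the eIF4A helicase gene (2.86-fold, log2 ratio 1.52 ± 0.18, SD, n = 3; adjusted p = 0.000231), and *ifg-1*, the eIF4G scaffold gene (2.82-fold, 1.50 ± 0.32; adjusted p = 0.000323). The synthetase genes numbered 1 had a median of 0.55, close to the medians of these lists. Their share of higher genes was 44.4%, against 22.2% of the ribosomal protein genes and 36.0% of the initiation factor genes. Among everything tested, 12.0% were higher and 10.8% lower.

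The synthetase genes numbered 2, which take in the cytosolic *aars-2* and the pseudogene *cars-2* and leave out *aars-1*, had a median of 0.43. Of 45 mitochondrial ribosomal protein genes, 4 were higher and 2 lower, with a median of 0.23. The share of higher genes among the mitochondrial ribosomal protein genes, 8.89%, was near the 12.0% of everything tested. The list named mitochondrial translation factors also took in *mttu-1*, *mtcu-1* and *mtcu-2*, which are genes of mitochondrial tRNA modification. Of its 6 genes, 2 were higher and 0 lower: *gfm-1*, for an elongation factor G (1.89-fold, log2 ratio 0.92 ± 0.18, SD, n = 3), and *tsfm-1*, for the elongation factor Ts (1.71-fold, 0.78 ± 0.35). *gfm-1* missed the threshold without prep 2 (adjusted p = 0.066), as did *tsfm-1* without prep 1 or prep 2 (adjusted p = 0.18 and 0.15). Of 7 other genes of tRNA maturation and modification, limma called 0, and their median was 0.12. At an unadjusted p under 0.05 there were 0, against 33.1% of everything tested.

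**Figure D4:**
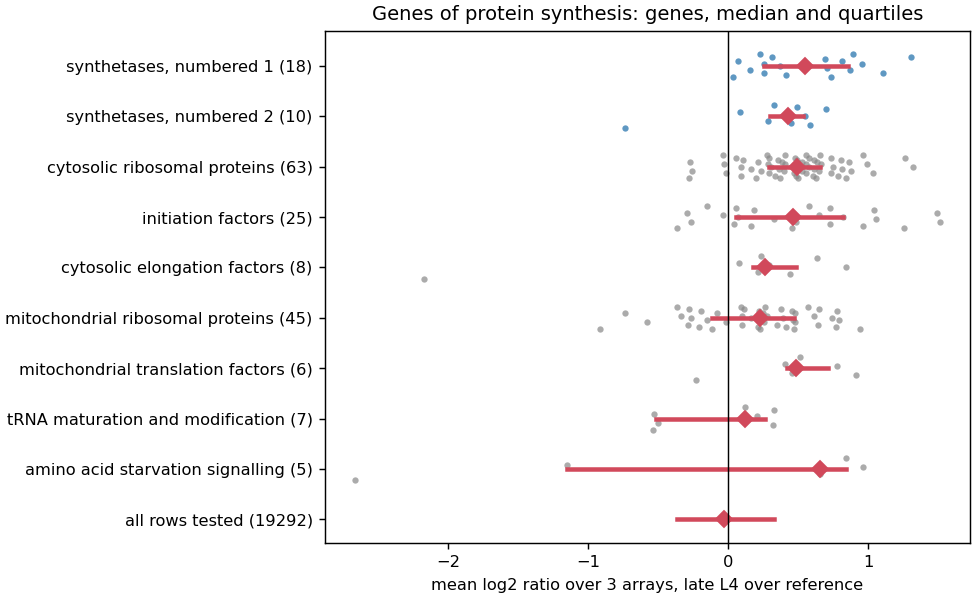
Mean log2 ratio over the 3 arrays of the genes in each list (dots), with the median (diamond) and the quartiles (red bar) and the number of genes in brackets; for everything tested only the median and quartiles are drawn. The synthetase genes numbered 1 and 2 have medians of 0.55 and 0.43, and everything tested has one of -0.03. The list of mitochondrial translation factors takes in genes of mitochondrial tRNA modification, and that of cytosolic elongation factors takes in the kinase gene *efk-1*.

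The list named cytosolic elongation factors also took in *efk-1*, a kinase gene. Of its 8 genes, 1 was higher and 1 lower, with a median of 0.27. Each count was 12.5% of the list, near the 12.0% higher and 10.8% lower among everything tested. The lower gene was *efk-1*, for the kinase that inhibits elongation factor 2, with -2.04, -1.80 and -2.68 on preps 1, 2 and 3 (mean -2.17 ± 0.46, SD, n = 3, or 4.51-fold lower; adjusted p = 1.65e-05). The higher gene was *eef-1A.2*, for the elongation factor that delivers charged tRNAs to the ribosome (1.80-fold, 0.85 ± 0.42; adjusted p = 0.023), which did not pass without prep 2 (adjusted p = 0.23). Of 5 genes of amino acid starvation signalling, 2 were higher and 2 lower (40.0% each of a short list). *gcn-2*, for a kinase whose yeast counterpart is activated by uncharged tRNA, was higher (1.79-fold, 0.84 ± 0.17), while *pek-1*, for the kinase that phosphorylates the same initiation factor under endoplasmic reticulum stress, was 2.22-fold lower (-1.15 ± 0.20; adjusted p = 0.00229). The asparagine synthetase genes, which make the amino acid that *nars-1* charges, differed in direction: *asns-1* was higher at 1.34, 0.84 and 0.71 (1.95-fold, 0.96 ± 0.33), and *asns-2* was lower at -3.44, -2.56 and -2.01 (6.36-fold lower, -2.67 ± 0.72; adjusted p = 5.91e-06). *gcn-2* and *asns-1* were named after their values were seen; without prep 1 neither passed (adjusted p = 0.10 and 0.089), nor did *gcn-2* without prep 3 (adjusted p = 0.067).

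The ratios of the synthetase genes spanned from -0.74 to 1.31 in their means, while those of everything tested spanned from -5.08 to 5.81. Across the 29 genes the Pearson correlation of the log2 ratios was 0.42 for preps 1 and 2, 0.33 for preps 1 and 3 and 0.54 for preps 2 and 3, against 0.70, 0.73 and 0.69 in the same order across everything tested. These are descriptions, since genes share their arrays and are not independent replicates. The median SD over the 3 arrays was 0.31 for the synthetase genes and 0.36 for everything tested. Of the 29 genes, 8 had ratios on both sides of 0 on different preps, and 19 were above 0 on all 3.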

How the data were processed

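The authors deposited 1 log2 ratio per feature and array; the processing behind it (dyes, background correction, normalization) is not given in the sources used here. Raising 2 to each deposited log2 value gave a multiple of 0.001 on every array in 100% of cases (tolerance 0.05 of a step), against 10.4 to 11.0% for the inverse ratios. Symbols came from the platform annotation, where 15655 features had 1 symbol, 198 several and 4147 none listed; 15569 were updated by Entrez ID with the RefSeq gene table for WBcel235, and updating changed no member. Where a gene had several features measured on all 3 arrays, their mean was taken on each array. A limma model (version 3.58.1 in R 4.3.3; lmFit, then eBayes) tested the mean over arrays against 0, two-sided, over all 19292 rows with Benjamini-Hochberg adjustment. The fit had 2 residual and 12.85 prior degrees of freedom at a prior SD of 0.44, so the error of a gene leans on the spread of all genes, and the number of arrays limits the precision. The procedure was tested on simulated data. All measured members are named; of each other list, the 2 called genes with the largest absolute mean and the same sign on all arrays could be named. Members, lists and alternatives were chosen with earlier results of these data known. Differences between groups of members were given per array, with no test.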

Additional observations from a re-analysis of the deposited data

How the results depend on the processing

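No paired analysis was possible because all 3 arrays belong to a single group. Settings for genes numbered 1 or 2 alone and for the alanyl, cysteinyl and valyl genes were added after seeing the data. Without moderation of the variance limma called 0 synthetase genes higher, 0 of them among those numbered 1, and 0 lower, and 0 of everything tested; at an unadjusted p under 0.05, 7 were higher and 1 lower, against 9.71% and 12.1% of everything tested. At an adjusted p under 0.01, 3 were higher, 2 of them numbered 1, and 0 lower. Without any 1 prep, 4 to 6 were higher, 3 to 5 of them numbered 1, and 0 lower, against 9.35 to 10.7% higher and 6.93 to 9.21% lower of everything tested. Testing rows with values on at least 2 arrays gave 7 higher genes, against 11.8% of everything tested. Median centring and centring with scaling each gave 0 lower genes and 1 higher gene numbered 2, and robust eBayes gave 1 higher gene numbered 2. The difference of the medians, numbered 1 minus numbered 2, ranged from -0.04 to 0.21 without any 1 prep; leaving out the alanyl genes gave 0.13, and leaving out the cysteinyl and valyl genes too gave 0.22. With any 1 prep left out, the mean ratio ranged from -0.18 to 0.79 for *ears-1*, from -0.087 to 0.22 for *hars-1*, from -0.029 to 0.26 for *lars-1* and from -0.10 to 0.46 for *vars-1*, and these were the synthetase genes whose direction turned. Assigning compartments from RefSeq descriptions was not run, since the gene table gives none. Limits set by dim spots could not be tested without intensities. The cause of these differences was not tested, beyond fewer arrays or degrees of freedom where these were reduced.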
